A study of Homo sapiens with 12 samples.

Results

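Transcript levels of 6 cortical genes, *PAX6*, *EMX2*, *EOMES*, *TBR1*, *BCL11B* and *LMO3*, were followed in cerebral organoids (COs) with and without an edit of *c-JUN*. The genes were taken by symbol from the 10976 genes of the deposited tables, and all 6 were present. COs were grown without regional guidance from human embryonic stem cells of the line H1 (WT) and from 2 clones of H1 edited at *c-JUN* by CRISPR-Cas9 (KO#2 and KO#10). All lines went through the same neural differentiation and CO induction. RNA of several pooled COs was sequenced after removal of ribosomal RNA, in 2 libraries for each line on day 12 and on day 24. Each KO line is a single clone. Nothing in the labels says that the replicates were separate cultures, so that *p*-values measure only the spread between these libraries.

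All of the genes but *LMO3* mark successive steps of the making of cortical excitatory neurons. *PAX6* and *EMX2* encode homeodomain factors of the radial glia, the dividing progenitors of the dorsal forebrain, where they help to set the regional identity of the cortex. *EOMES* (TBR2) marks the intermediate progenitors that radial glia give rise to, *TBR1* marks early-born neurons of the deep layers, and *BCL11B* (CTIP2) marks deep-layer neurons that project below the cortex. *LMO3* encodes a LIM-only cofactor that binds no DNA itself and works through partner proteins.

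The deposited value of a gene is a whole-number score. Every library had the same median of 17 and the same highest score of 5585, so the scores follow 1 shared distribution. They do not tell how deeply a library was sequenced, and counting intervals cannot be made. Scores are not known to be scaled to gene length, and levels were therefore compared between libraries and not between genes. *JUN*, the edited gene, had scores of 4 and 8 in WT at day 12 against 13 to 19 in the libraries labelled KO, and of 13 and 15 against 29 to 39 at day 24. Its transcript score was thus higher, not lower, in the libraries labelled KO. The score does not check the edit, and the study's own checks on protein and by RT-qPCR are not analysed here. Each direction given here follows the labels. The labels name the cell type as embryonic stem cells. The pluripotency factor *POU5F1* had scores of 75 and 236 in WT and 3 to 6 in the libraries labelled KO at day 24.

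The files place *PAX6* (ENSG00000007372) at chr11:31784779-31817961 on the minus strand, *EMX2* (ENSG00000170370) at chr10:117542445-117549546 on the plus strand, and *EOMES* (ENSG00000163508) at chr3:27715949-27722711 on the minus strand. *TBR1* (ENSG00000136535) lies at chr2:161416297-161425870 on the plus strand, *BCL11B* (ENSG00000127152) at chr14:99169287-99272197 on the minus strand, and *LMO3* (ENSG00000048540) at chr12:16548372-16610594 on the minus strand. All identifiers were found in GENCODE release 29 (GRCh38), which lists the 6 genes as protein coding. Other genes of the files overlap 4 of them. The antisense transcript *EMX2OS* had scores from 2 to 64, the opposite-strand genes *ELP4* (over *PAX6*) and *MGST1* (over *LMO3*) from 16 to 26 and from 14 to 820, and *SLC4A10* (same strand as *TBR1*) from 1 to 8. Whether the counting used the strand is not stated, so reads of a gene and of an overlapping one cannot be told apart.

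Promoter sequence from RefSeq (GRCh38.p14) was searched over the 250 bases before each annotated start, on both strands. RefSeq lists 9 starts for *PAX6*, 5 for *LMO3* and 1 for each other gene, and the start farthest upstream was used for printing. For *EMX2*, *EOMES* and *LMO3* that start, with its window, lies inside the gene as the deposited coordinates place it. The bases before the outer end of these genes were not searched. The motifs searched were AP-1 (TGANTCA, in 6.57% of all promoters of that length), CRE (TGACGTCA, 1.65%), T-box (TCACACC, 2.76%), homeodomain (TAATTA, 4.35%), E-box (CAGATG, 12.2%) and TATA box (TATAAA, 10.7%). The AP-1 letters, bound by c-JUN dimers, were not in any of these windows. The lines give 30 bases around the match nearest to the start of 5 genes, to show which letters these promoters carry, with each match in capitals.
PAX6, chr11:31818019-31818048, minus strand, CRE: tctagccgccaTGACGTCAcgcgggccggg
EMX2, chr10:117542704-117542733, plus strand, homeodomain: tgatccccgcacTAATTAggctcatgaact
EOMES, chr3:27722337-27722366, minus strand, TATA box read on the other strand: ccccatcctgccTTTATAataaggccaccg
TBR1, chr2:161416117-161416146, plus strand, 2 homeodomain matches: tatccTAATTAatgtctatcTAATTAaatt
LMO3, chr12:16608294-16608323, minus strand, homeodomain: tctccttgaacaTAATTAatttaattgtcc
The *PAX6* window held the palindromic CRE letters, which c-JUN can bind together with ATF family partners, 69 to 76 bases before that start. *TBR1*, *EMX2* and *LMO3* shared the homeodomain letters. *BCL11B* had none of the 6 motifs in its window. A match of letters is a description and does not show a bound site.

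*PAX6* had a higher score in every library labelled KO than in WT on both days, and the difference passed the test at day 24. At day 24 its scores were 40 and 34 for WT, 106 and 82 for KO#2, 73 and 74 for KO#10. The lowest KO library stood well above the higher WT library, so the groups did not overlap. In limma on log2 (score + 1), the log2 fold change was 1.15 (SE 0.18, 95% confidence interval 0.71 to 1.58), with an adjusted *p* of 0.0206. At day 12 the scores were 68 and 63 (WT), 109 and 109 (KO#2), and 90 and 112 (KO#10). Again every KO library was above both WT libraries. The day 12 difference was smaller, with a log2 fold change of 0.67 (SE 0.15), and did not pass the test in limma (adjusted *p* = 0.152). Blocking on the replicate number gave an adjusted *p* of 0.0497 in limma, and the change was under the 2-fold needed for a call.

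*EMX2* had low scores at day 12 and was higher in the libraries labelled KO at day 24. Its scores at day 24 were 6 and 4 for WT, 15 and 48 for KO#2, 18 and 60 for KO#10. The groups did not overlap, although the KO libraries spread widely and replicate 2 was the higher one in both clones. The log2 fold change was 2.38 (SE 0.57, 95% confidence interval 1.04 to 3.72), with an adjusted *p* of 0.0385 in limma. At day 12 *EMX2* was listed at 0 in both WT libraries, at 1 and 11 for KO#2, and at 0 and 12 for KO#10. The replicate 2 libraries of the clones stood above WT and the replicate 1 libraries at or next to 0, and the difference did not pass the test (adjusted *p* = 0.704, limma). No fold is given against WT libraries at 0. The antisense *EMX2OS* had scores of 5 and 3 in WT and 15, 55, 22 and 64 in KO#2 and KO#10 at day 24, and so followed the same order of libraries as *EMX2* among the KO libraries.

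*EOMES*, the intermediate progenitor gene, had low scores that overlapped between genotypes. At day 24 they were 1 and 7 (WT), 13 and 17 (KO#2), and 2 and 19 (KO#10). Of the KO libraries 3 were above both WT libraries, and replicate 1 of KO#10 was among the WT values. The log2 fold change was 1.47 (SE 0.88, 95% confidence interval -0.61 to 3.55) and did not pass the test (adjusted *p* = 0.255, limma). Without replicate 1 of KO#10 it was 2.10, with an adjusted *p* of 0.0410 in limma. At day 12 *EOMES* was listed at 0 and 0 for WT, 1 and 5 for KO#2, 0 and 4 for KO#10, too low to be tested.

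*TBR1*, the early neuronal gene, had the largest log2 fold change of the members tested at day 24. Its scores at day 24 were 1 and 0 (WT), 24 and 27 (KO#2), and 4 and 26 (KO#10). The KO libraries were all above WT, with 3 of them close together and replicate 1 of KO#10 far below these. The log2 fold change was 3.63 (SE 0.75, 95% confidence interval 1.86 to 5.41), with an adjusted *p* of 0.0301 in limma. As WT was at or next to 0, its size depended on the number added before the logarithm, and was 5.62 with 0.1 and 2.04 with 5 in place of 1. At day 12 *TBR1* had scores of 0 and 1 for WT, 1 and 4 for KO#2, 1 and 5 for KO#10, and was not tested.

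*BCL11B*, the other deep-layer gene, was at 0 in all 6 libraries of day 12. At day 24 its scores were 0 and 1 (WT), 1 and 6 (KO#2), and 1 and 3 (KO#10), under the level needed for a test. The highest of these values were again in the replicate 2 libraries of the clones.

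*LMO3* did not separate the genotypes. At day 12 its scores were 36 and 33 for WT, 31 and 35 for KO#2, 33 and 39 for KO#10, and the groups lay on top of each other. The log2 fold change was -0.0036 (SE 0.14, 95% confidence interval -0.33 to 0.32), with an adjusted *p* of 0.998 in limma. At day 24 the scores were 27 and 11 (WT), 48 and 20 (KO#2), and 25 and 13 (KO#10). Replicate 1 was above replicate 2 in each of the 3 lines, and the WT values lay within the spread of the KO values or just below it. The log2 fold change of 0.43 (SE 0.52, 95% confidence interval -0.80 to 1.66) did not pass the test (adjusted *p* = 0.564, limma). *MGST1*, on the opposite strand, had scores of 452 and 750 in WT and 14 to 109 in the libraries labelled KO at day 24, and its part in the *LMO3* scores was not tested.

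**Figure D1:**
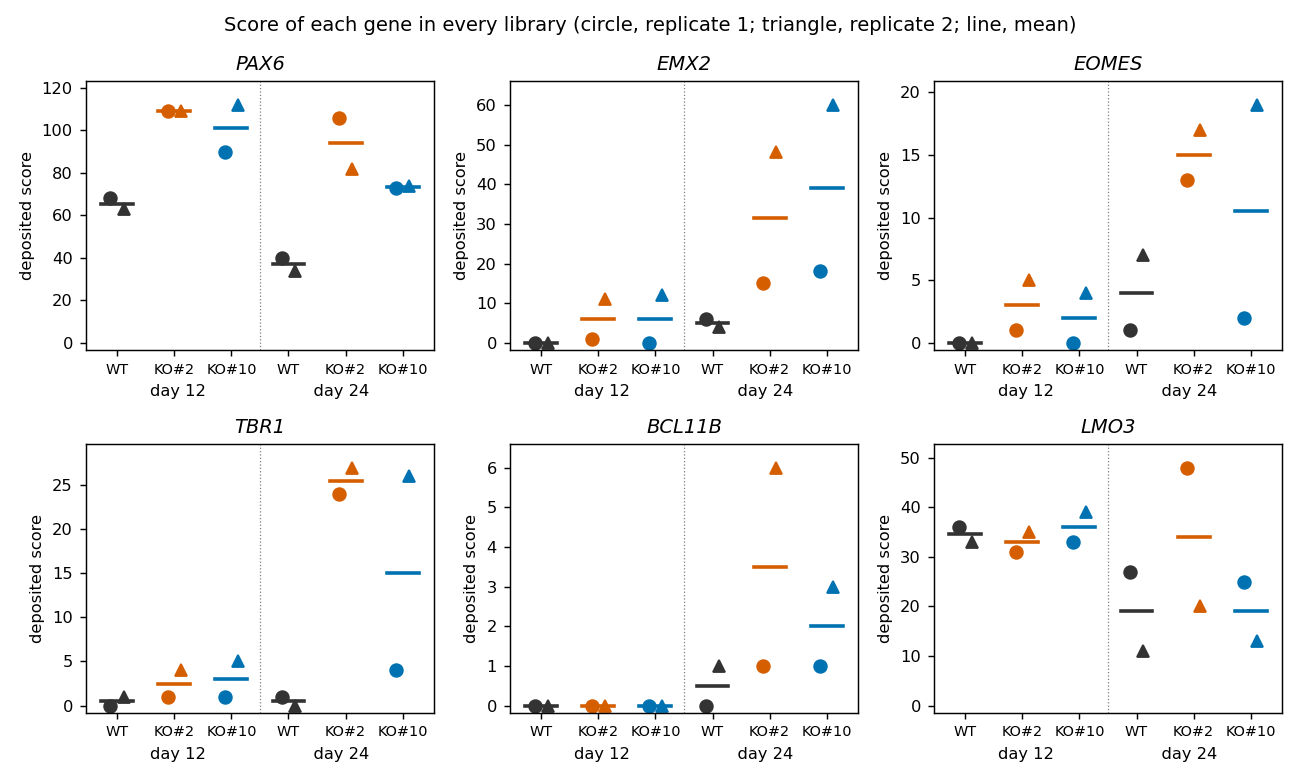
Deposited score (vertical axis, linear, scaled per gene) of each of the 6 genes in the 12 libraries, by line and day; circles are replicate 1, triangles replicate 2 and bars the mean of 2 libraries. *PAX6*, *EMX2* and *TBR1* sit higher in every KO library than in WT at day 24, while *LMO3* has replicate 1 above replicate 2 in each line at day 24.

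Of the 5 genes tested at day 24, 3 (*PAX6*, *EMX2* and *TBR1*) were called higher in the libraries labelled KO, at an adjusted *p* under 0.05 and a change of at least 2-fold. Among all 9289 genes tested, 4.22% were called higher and 3.79% lower. *EMX2*, *EOMES* and *TBR1* reached the score of 10 needed for a test only in KO libraries, so the filter admitted them through the group in which they were high, and the count over the tested genes is a description. The same 3 called genes had every KO library above both WT libraries, which held for 22.2% of all genes tested. At day 12, 3 genes were tested (*PAX6*, *EMX2*, *LMO3*) and limma called 0 of them, beside 0.09% of 8885 genes called in either direction. This fit did not include the replicate number. At an unadjusted *p* under 0.05 in limma, *PAX6* alone of these 3 passed, which is a description, as the share of all genes at that level is not given here. *PAX6* was the only one of the 6 with every KO library above both WT libraries at day 12, as were 8.23% of the genes tested.

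**Figure D2:**
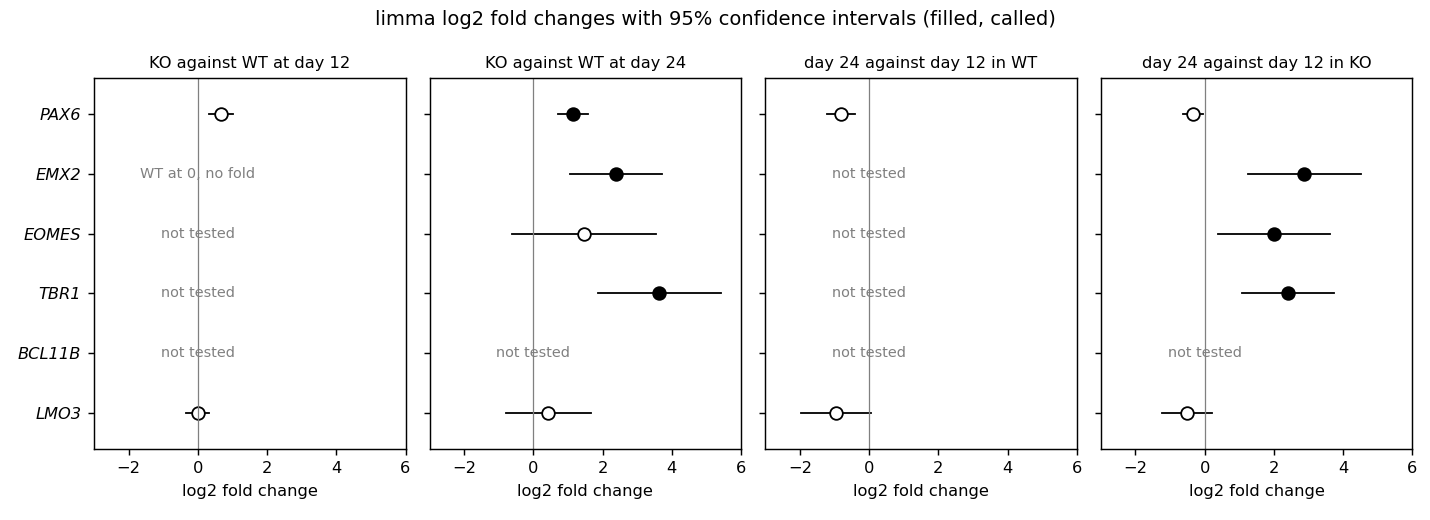
Log2 fold changes from limma (horizontal axis, on log2 of score + 1) with 95% confidence intervals for the 6 genes in 4 comparisons; filled points were called, and "not tested" marks genes with fewer than 2 libraries at a score of 10. At day 24 the intervals of *PAX6*, *EMX2* and *TBR1* lie to the right of 0, and those of *EOMES* and *LMO3* span it.

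These calls rested on few libraries. With each library left out in turn, the log2 fold change stayed between 1.03 and 1.26 for *PAX6*, between 2.06 and 2.70 for *EMX2*, and between 3.13 and 4.24 for *TBR1*. The adjusted *p* of *PAX6* in limma was 0.0718 without replicate 1 of WT, 0.245 without replicate 2 of WT, 0.0679 without replicate 2 of KO#2 and 0.0695 without replicate 2 of KO#10, and the call was lost in each. *EMX2* and *TBR1* were called again only without replicate 1 of KO#10 (adjusted *p* = 0.0236 and 0.00293, limma). With any other library left out, the adjusted *p* in limma lay between 0.0528 and 0.296 for *EMX2* and between 0.0742 and 0.270 for *TBR1*. Where 1 WT library was left, it was assumed to vary like the KO libraries.

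**Figure D3:**
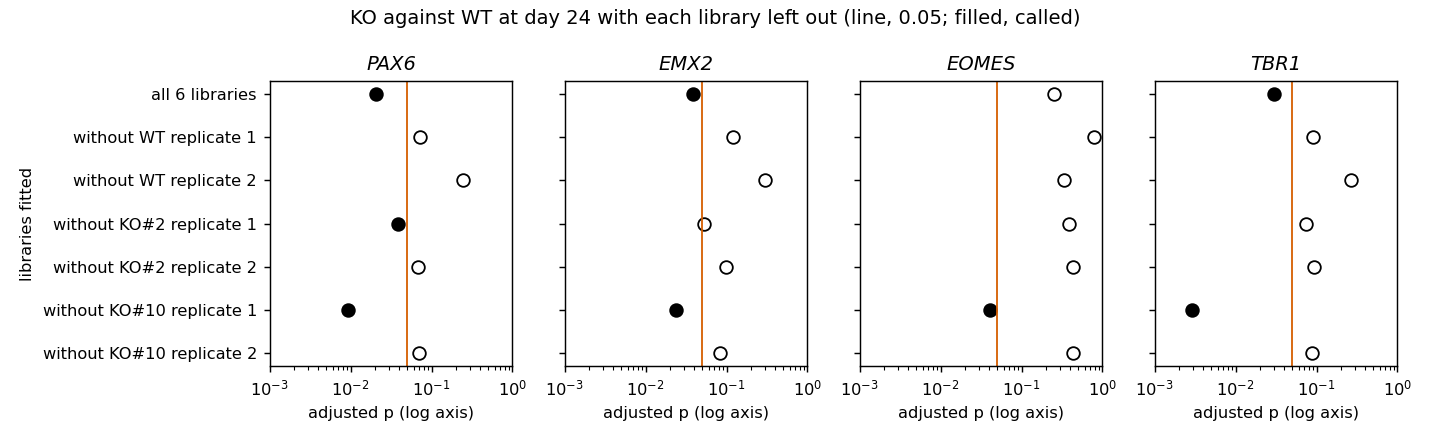
Adjusted *p* from limma (horizontal axis, logarithmic) for KO against WT at day 24, with all 6 libraries and with each left out; the vertical line is 0.05 and filled points were called. Only the fit without replicate 1 of KO#10 called all 4 genes shown, and no gene was called without replicate 1 or 2 of WT.

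The change from day 12 to day 24 was compared within each genotype. In the libraries labelled KO, *EMX2*, *EOMES* and *TBR1* were called higher at day 24, that is 3 of 5 genes tested beside 5.86% of 9436 genes called higher. *EOMES* and *TBR1* reached the score of 10 only at day 24 in these libraries, so the filter admitted them through the day in which they were high, and the count is a description. The log2 fold changes were 2.88 (SE 0.75, adjusted *p* = 0.0104, limma) for *EMX2*, 1.99 (SE 0.74, adjusted *p* = 0.0499) for *EOMES* and 2.41 (SE 0.62, adjusted *p* = 0.00933) for *TBR1*. *EMX2* and *TBR1* kept their call with each of the 8 KO libraries left out, whereas *EOMES* lost it with 5 of them (adjusted *p* from 0.00836 to 0.138 over the 8 fits, limma). With a pseudocount of 0.1 in place of 1, *TBR1* (adjusted *p* = 0.0523, limma) and *EOMES* (0.0899) lost their calls and *EMX2* kept its own. *PAX6* had a log2 fold change of -0.33 (SE 0.14, adjusted *p* = 0.0694, limma) and *LMO3* of -0.52 (SE 0.33, adjusted *p* = 0.232, limma).

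In WT, only *PAX6* and *LMO3* were high enough to be tested, and neither was called, beside 15.1% of 8890 genes called in either direction. *PAX6* had a log2 fold change of -0.81 from day 12 to day 24 (SE 0.19, adjusted *p* = 0.00872, limma), short of the 2-fold change. Its 2 WT scores at day 24, of 34 and 40, were below both of day 12, of 63 and 68. *LMO3* had a log2 fold change of -0.95 (SE 0.47, adjusted *p* = 0.138, limma). *EMX2* was listed at 0 at day 12 and at 6 and 4 at day 24 in WT, and *TBR1* did not pass a score of 1 in any WT library.

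Whether the KO-WT difference itself changed between the days was tested as an interaction. Limma called 0 of the 5 genes tested, beside 1.31% of 9952 genes in either direction. *TBR1* alone of the 5 had an unadjusted *p* under 0.05 in limma, and the share of all genes at that level is not given here. *EOMES* and *TBR1* reached the score of 10 only in KO libraries of day 24. The filter admitted them through the group in which they were high, so these counts are a description. The log2 KO-WT difference at day 24 minus that at day 12 was 2.41 for *TBR1* (SE 1.05, 95% confidence interval 0.14 to 4.68, adjusted *p* = 0.207, limma) and 0.48 for *PAX6* (SE 0.23, adjusted *p* = 0.265, limma). It was 0.44 for *LMO3* (SE 0.57, adjusted *p* = 0.709, limma). *EMX2* and *EOMES*, at 0 in both WT libraries of day 12, had adjusted *p*-values of 0.919 and 0.999 in limma. Without replicate 1 of KO#10 at day 24 the value for *TBR1* was 3.01, with an adjusted *p* of 0.0249 in limma.

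By order of mean score over the 6 combinations of line and day, *PAX6* was highest in KO#2 at day 12 (109 ± 0.0, SD, n = 2) and lowest in WT at day 24 (37.0 ± 4.24, SD, n = 2). The range of KO#10 at day 12 overlapped those of KO#2 at day 12 and at day 24, which were apart from each other, and the lower 3 were each apart from the next. *EMX2* and *TBR1* had their 2 highest means in the KO lines at day 24, where KO#10 (39.0 ± 29.7 for *EMX2*, 15.0 ± 15.6 for *TBR1*, SD, n = 2) and KO#2 (31.5 ± 23.3 and 25.5 ± 2.12) overlapped. *PAX6* stood highest at day 12, and *EMX2*, *EOMES*, *TBR1* and *BCL11B* at day 24.

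Each clone was also compared with WT at day 24 in a fit of 3 groups. In KO#2, *PAX6* (log2 fold change 1.31, SE 0.18, adjusted *p* = 0.0301, limma) and *TBR1* (4.23, SE 0.82, adjusted *p* = 0.0378, limma) were called higher, beside 4.76% of the genes tested. In KO#10 limma called 0 of the 5 genes, beside 0.14% called higher. The genes called with both clones pooled had log2 fold changes there of 0.98 for *PAX6* (SE 0.18, adjusted *p* = 0.0959, limma), 2.52 for *EMX2* (SE 0.71, adjusted *p* = 0.130, limma) and 3.04 for *TBR1* (SE 0.82, adjusted *p* = 0.122, limma). No difference between the clones passed a direct test of KO#2 against KO#10, in which limma called 0 of the 5 genes, beside 0.0% of all genes called. The intervals of that difference were wide, from -0.11 to 0.79 for *PAX6*, from -2.05 to 1.48 for *EMX2* and from -0.83 to 3.20 for *TBR1* on the log2 scale, so that similar levels in the clones were not shown.

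Other genes of the same steps were read from marker lists. Of all 9289 genes tested at day 24, 787 reached the score of 10 only in KO libraries and 292 only in WT libraries. Counts and medians over the tested genes of a list lean toward the group that let them in, and are given as a description beside the 4.22% called higher and 3.79% called lower. Of 15 genes of cortical patterning and radial glia tested at day 24, 6 were called higher in the libraries labelled KO and 0 lower, with a median log2 fold change of 1.17 beside 0.0063 over all genes. These were *NR2F1* (2.40, adjusted *p* = 0.00377, limma), *DMRT3*, *DMRTA2*, *OTX1*, *NR2F2* and *GLI3*, of which *DMRT3*, *DMRTA2* and *OTX1* reached 10 only in KO libraries. *NR2F1*, a nuclear receptor that patterns the cortical area map, had scores of 13 and 14 in WT and 63 to 85 in the KO libraries. The general progenitor gene *SOX2* had a log2 fold change of 0.10 (adjusted *p* = 0.832) in limma.

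Of 8 intermediate progenitor genes tested, 3 were called higher and 0 lower (*INSM1*, *HES6* and *ELAVL4*), with a median of 1.59. Of these 8, 5 reached 10 only in KO libraries, *INSM1* and *ELAVL4* among them. *ELAVL4* is also in the pan-neuronal list and is counted again among the genes called there. *NEUROG2*, the proneural factor of cortical progenitors, had scores of 0 and 0 (WT), 12 and 32 (KO#2), and 1 and 44 (KO#10), and was not called (adjusted *p* = 0.0672, limma). Of 15 genes of cortical plate neurons tested, 4 were called higher and 0 lower, with a median of 0.91, and these were *FEZF2*, *BCL11A*, *CUX2* and *FOXP2*. All 4 reached 10 only in KO libraries, as did 6 of the 15. *BCL11A*, the close relative of *BCL11B*, had scores of 5 and 7 in WT and 11 to 36 in the KO libraries, and a log2 fold change of 1.79 (SE 0.47, adjusted *p* = 0.0472, limma). *NEUROD2* was at 0 in every library, and *NEUROD6* reached a score of 5 only in the replicate 2 libraries of both clones at day 24.

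Of the 8 LIM domain genes tested, which include relatives and partners of *LMO3*, 1 was called higher (*LHX9*, at 10 only in KO libraries) and 0 lower, with a median of 0.22. *LMO4* (-0.12), *LMO1* (-0.62) and *LDB1* (0.56) were not called. Cajal-Retzius cells, early *TBR1*-positive neurons of the cortical surface, had 1 of 4 genes called higher (*EBF3*, at 10 only in KO libraries) and 0 lower. The list had a median of 0.91. *CXCR4* (1.26), *LHX5* (0.57) and *RELN* (-0.14) were not called. Of 15 pan-neuronal genes tested, 6 were called higher and 0 lower, with a median of 1.88, and 5 of these 6 reached 10 in WT libraries too, among them *MAP2* (3.60, SE 0.94, adjusted *p* = 0.0471, limma). Other regions were mixed, with 3 of 6 genes of thalamus and diencephalon called higher (*WNT8B*, *FOXP2*, *LHX9*, all at 10 only in KO libraries), 0 of 5 of the ventral telencephalon and 0 of 3 of the eye field called in either direction. The ventral list had a median log2 fold change of 1.53 in KO#2 and of -1.085 in KO#10 against WT. Limma called 0 of its 5 genes in either clone or between the clones. *WNT8B* and *LHX9* are also active at the medial edge of the cortex, and *FOXP2* is also in the list of cortical plate neurons. The mesendoderm list, kept because *EOMES* also acts in that lineage, had 0 of its 10 genes in the files and was not analysed here.

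**Figure D4:**
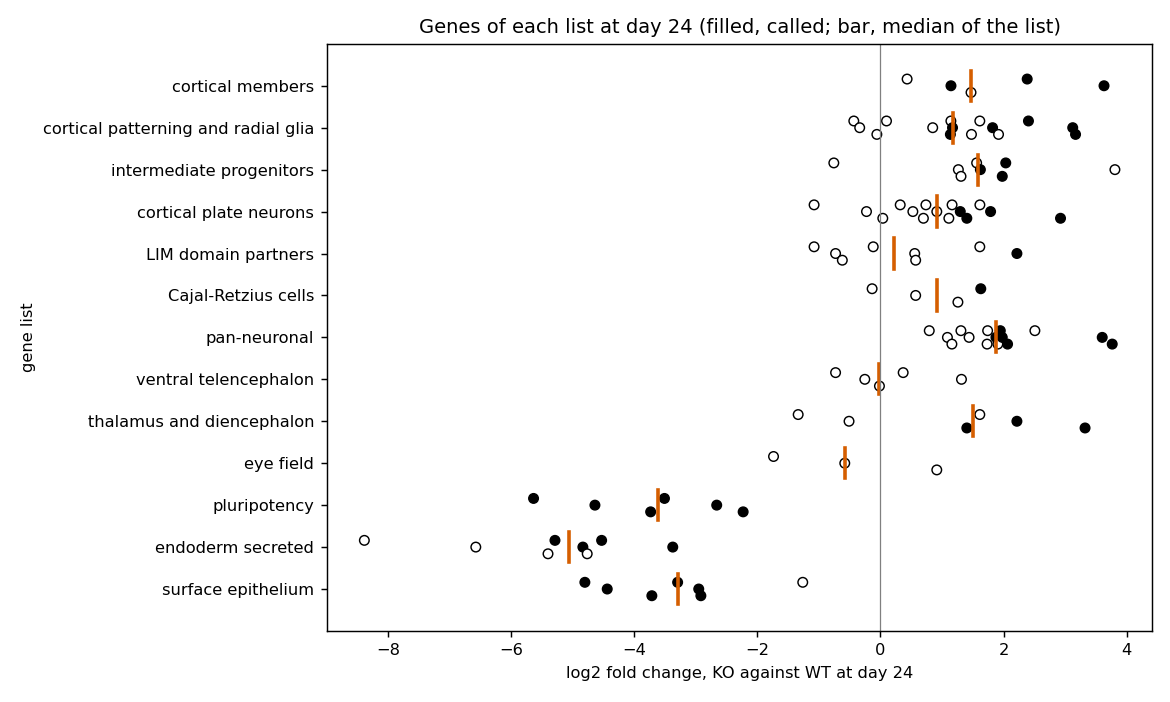
Log2 fold change of KO against WT at day 24 (horizontal axis) for the tested genes of each list (rows), where filled points were called and the coloured bar is the median of the list. The medians of the cortical and pan-neuronal lists lie right of 0, between 0.91 and 1.88, and those of pluripotency, endoderm and surface epithelium lie between -5.06 and -3.30.

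Markers of other tissues moved with genotype at day 24. The summed score of 8 secreted endoderm genes, such as *AFP* and *TTR*, was 7174 to 7362 in WT and 33 to 1297 in the libraries labelled KO, and 4 of the 8 were called lower (median log2 fold change -5.06, 1 of the 8 at 10 only in WT libraries). The sum leans on *AFP*, which had the highest score of the scale, 5585, in both WT libraries and 902 in replicate 1 of KO#10. *AFP* itself was not called (adjusted *p* = 0.0636, limma). The pluripotency sum was 439 to 882 in WT and 38 to 60 in the KO libraries, and 6 of 6 tested genes were called lower (median -3.62, 3 of them at 10 only in WT libraries). The sum of the surface epithelium genes was 674 to 907 in WT and 46 to 257 in the KO libraries, and 6 of 7 were called lower (median -3.30, 4 of the 7 at 10 only in WT libraries). The part of these cells in the higher *PAX6*, *EMX2* and *TBR1* scores was not tested. In RNA of whole COs, fewer cells of a type and less RNA per cell cannot be told apart.

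Replicate 1 of KO#10 stood apart within its clone. It had an endoderm sum of 1297, against 33 to 105 in the other KO libraries, and a pan-neuronal sum of 598, against 2069 to 2875. Its *TBR1* (4), *EOMES* (2) and *NEUROG2* (1) scores were the lowest of the KO libraries, whereas its *PAX6* score of 73 was next to the 74 of replicate 2 and its *LMO3* score of 25 was above the 13 of replicate 2. WT had pan-neuronal sums of 234 and 428. The pan-neuronal sum leans on *MAP2* and *GPM6A*. *MAP2* had a score of 95 in replicate 1 of KO#10, against 668 to 1009 in the other KO libraries, and *GPM6A* 80, against 553 to 822. *DCX* was lower in that library too (17, against 56 to 80), whereas *GAP43* (56, against 52 to 77) and *NEFM* (46, against 24 to 43) were not. At day 12 the endoderm sum was at most 22 in any library, and the pluripotency sum was 814 to 1032 in WT and 460 to 522 in the libraries labelled KO, with 3 of 6 genes called lower.

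**Figure D5:**
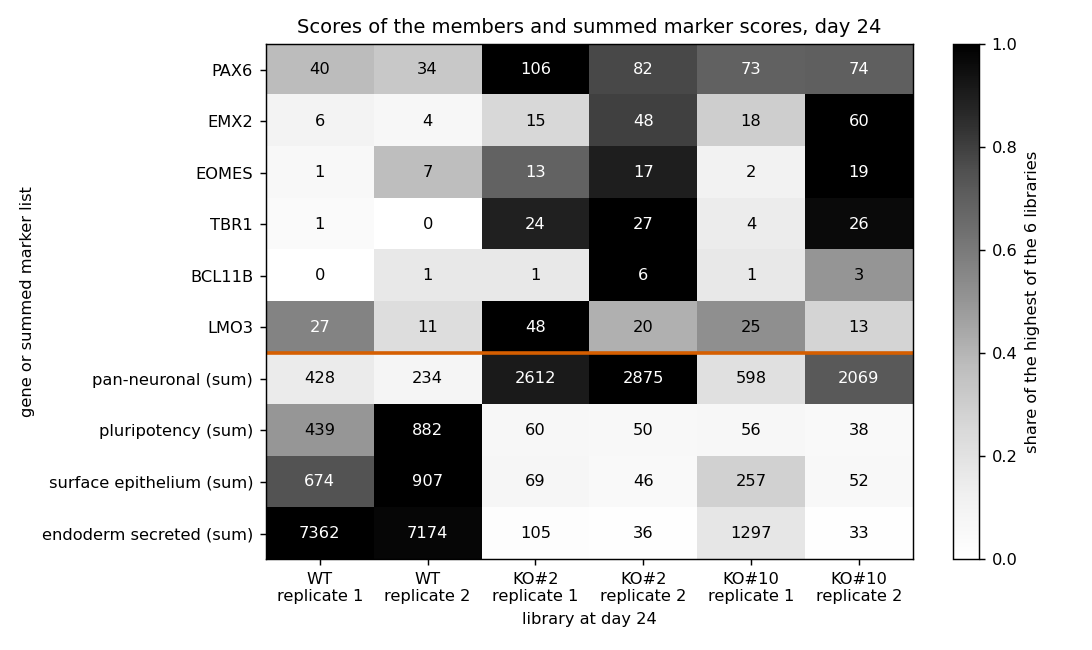
Scores of the 6 genes and summed scores of 4 marker lists in the 6 libraries of day 24 (columns); the shade gives each value as a share of the highest library in its row. Replicate 1 of KO#10 has a *PAX6* score like its pair (73 and 74) but low *TBR1* and *EOMES* scores (4 and 2), with an endoderm sum of 1297.

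The genes whose scores ran most like each member over the 12 libraries were listed as a description, since all share the line and day of these libraries. *TBR1* ran with *MAP1A* (Pearson r = 0.991 on the log2 scale, n = 12), *MAP1B* (0.982) and *ATAT1* (0.980), which encode microtubule-associated proteins and a tubulin acetyltransferase. *EOMES* ran with *NHLH1* (0.972), a basic helix-loop-helix factor of newborn neurons, *TMEM59L* (0.920) and *RARA* (0.914). *EMX2* ran with *AP1M1* (0.972), *CRTC3* (0.954) and *TENM4* (0.951), and *PAX6* with *NBPF1* (0.960), *SCUBE3* (0.957) and *DSTYK* (0.953). *NBPF1* belongs to a family of near-identical copies, so its counts are uncertain. *LMO3* ran with *CCNL1* (0.925), *RIC3* (0.914) and *ZNF793* (0.912).

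*CCNL1*, which encodes a cyclin linked to splicing, showed the same split between replicates as *LMO3* at day 24, with scores of 67 and 32 for WT, 102 and 31 for KO#2, 64 and 27 for KO#10. Among the members, *EMX2* ran with *EOMES* (r = 0.891) and *TBR1* (0.840), and *EOMES* with *TBR1* (0.804), while *PAX6* had an r of 0.132 with *EMX2*, 0.115 with *EOMES* and 0.459 with *TBR1*. *LMO3* had an r of 0.615 with *PAX6* and of -0.593 with *BCL11B*.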

How the data were processed

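Total RNA of 12 libraries (2 per line and day) was analysed. The authors deposited a whole-number score per gene, normalized so that all libraries share 1 distribution, and library totals lay between 473637 and 483149. The submitters' processing notes name bcl2fastq, RSEM, Bowtie2 and the build mm10, whereas identifiers and coordinates in the files are human, and the normalization is not given in the sources used here. Scores were transformed as log2 (score + 1) and a gene was fitted when 2 or more of the compared libraries had a score of 10 or more, with limma 3.58.1 (R 4.3.3, lmFit and eBayes with a trend), with Benjamini-Hochberg adjustment over all genes tested. Calls needed an adjusted *p* under 0.05 and a 2-fold change. KO against WT used the libraries of 1 day, clones a fit of 3 groups, and day changes and the interaction all 12 libraries. No count model was used, because the scores are not counts. The code was tested on simulated data. Python 3.11.15 was used for tables and figures, with pandas 2.3.3, numpy 2.4.6 and matplotlib 3.10.9.

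The 6 genes, the marker lists and the tests were chosen with earlier results of these data known. The genes named are the members, genes of the marker lists (some are not reported here and stay out of the list counts), and for each member that reached a score of 10 in 2 libraries the 3 genes with the highest Pearson r over 12 libraries. Genes placed beside a result for their overlap or as the edited gene were added after their values were seen. The replicate numbers come from the labels. At day 12, the differences between replicates correlated across genes between the lines (r = 0.393, 0.376 and 0.556), as they would if the numbers pair these libraries. The main fits nevertheless left the replicate number out, at day 12 as well. It entered only as the replicate block among the alternatives. Alternatives were other pseudocounts and filters, no trend, a replicate block, separate groups for the clones, a joint fit of all 12 libraries, fits of 1 genotype only, and each library left out. A correction for the length of transcripts and one for their GC content were added after seeing the data.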

Additional observations from a re-analysis of the deposited data

Results flagged for a closer look

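In each set of 4 KO libraries of a day, the distance of the lowest and of the highest library to its neighbour was set against the whole range, and 2 values stood far from the others among 11 sets of gene and day. Chance alone picks out about 1 in 20 such sets. The lowest *TBR1* score of the KO libraries at day 24, of 4 in replicate 1 of KO#10, took 0.870 of the range, as the other 3 libraries lay between 24 and 27. The same library had the lowest *EOMES* score and the highest endoderm sum of the KO libraries. Their part in the low *TBR1* score was not tested. The lowest *PAX6* score of the KO libraries at day 12, of 90 in replicate 1 of KO#10, took 0.864 of the range, as the others lay between 109 and 112.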

How the results depend on the processing

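The 5 genes that could be tested gave 547 values under the alternatives, of which 487 kept direction and call, 34 lost a call, 2 gained one and 24 changed sign. Each sign change was in a difference that did not pass the test. The cause of the changes below was not tested, except that fewer libraries leave fewer degrees of freedom.

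At day 24, 744 genes were called for KO against WT, and 2 to 1346 with each library left out, where the members called went from 0 to 4 instead of 3. *PAX6* lost its call after correction for transcript length (log2 fold change 0.93), and *EMX2* with clones as separate groups (adjusted *p* = 0.0574, limma) or all 12 libraries in 1 fit (0.0734). *PAX6*, *EMX2* and *TBR1* kept their calls with the other pseudocounts and filters and without the trend. At day 12, 8 genes were called, against 3 with no filter, 71 with the replicate block, 16 without the trend, 1 with clones as separate groups and 1 to 4 with a library left out. Of the 6 genes, 0 were called at day 12 in all of these. From day 12 to 24, WT had 1345 genes called (620 to 1126 with a library left out, members 0) and KO 1069 (682 with a pseudocount of 5, 943 to 1146 with a library left out), where members called were 3, but 1 (*EMX2*) with a pseudocount of 0.1 and 2 to 3 with a library left out. *EOMES* missed the threshold in a fit of the KO libraries only (adjusted *p* = 0.0532, limma). The interaction had 130 genes (315 with the replicate block, 11 to 916 with a library left out, members 0 to 1).

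KO#2 had 835 genes and 2 members called (521 and 1 with the replicate block, 0 to 838 and 0 to 2 with a library left out). KO#10 had 26 genes (46 with a pseudocount of 5, 0 with the replicate block, 51 without the trend, 47 after correction for length, 55 for GC content, 0 with any library left out) and 0 members. KO#2 against KO#10 had 0 genes (0 to 2 with a library left out). At day 24 the differences between replicates gave mixed correlations across genes. These were 0.328 from one clone to the other, and for WT 0.218 against KO#2 but -0.0944 against KO#10. Replicate 2 of KO#2 was closer to replicate 2 of KO#10 (r = 0.978) than to its own replicate 1 (0.946). The replicate 1 libraries of the clones did not show this (0.896). Whether the replicate numbers pair the libraries of day 24 was thus not settled. The replicate block changed no call of a member at day 24 other than *TBR1* in KO#2 (adjusted *p* = 0.0529, limma).

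Signs changed in non-replicate alternatives for *LMO3* at day 12 (0.0316 after GC correction) and in the interaction for *EMX2* (-1.72 with a pseudocount of 0.1) and *EOMES* (0.39 with a pseudocount of 5, 0.0153 after length correction). With a library left out, the log2 fold change of *LMO3* ranged from -0.18 to 1.04 at day 24, from -0.0646 to 0.0574 at day 12, from -0.18 to 1.05 in the interaction and from -0.55 to 0.67 in KO#10. *EMX2* ranged from -0.38 to 0.86 in the interaction and from -1.12 to 0.56 between the clones. *EOMES* ranged from -1.01 to 0.99 in the interaction, from -0.42 to 2.32 in KO#10 and from -0.33 to 2.40 between the clones, and *TBR1* from -0.0293 to 2.40 between the clones.

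Depth is unknown, so scores of 0 to 5 in *EMX2*, *EOMES*, *TBR1* and *BCL11B* cannot be given a counting error.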
